A study of Rattus norvegicus and Mus musculus with 18 samples.

Results

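The EGF family ligands and ErbB receptors considered here are 7 genes, the ligands Tgfa, Hbegf and Areg and the receptors Egfr, Erbb2, Erbb3 and Erbb4, of 19342 gene symbols on the arrays. The genes were chosen with earlier results of these data known. Their probe sets were then taken by annotation alone: every probe set that the platform tables give to only 1 of the 7 symbols, which is 28 of 71239. The mouse table held 16 of them, for 6 genes, since no probe set was annotated to Areg alone. Rat design A held 10 for all 7 genes, rat design B held 1 for Erbb3, and rat design C held 1 for Hbegf.

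RNA was measured in dissected embryonic kidneys, with mouse ureteric bud tips, ureteric bud stalks and metanephric mesenchyme taken at day E12.5, and rat ureteric buds and metanephric mesenchyme at day E13.5. The labels name no genotype, strain or agent other than the DNase and trypsin (10 min) used to part the tissues in every group. Each RNA was a pool (some 1000 mouse tips, 350 mouse stalks, 300 mouse mesenchymes, 1200 rat buds or 240 rat mesenchymes), and 2 labelings of each pool went on arrays. The p-values therefore measure only the spread between labelings of 1 pool, not between embryos, and in whole tissue fewer cells of a type and less RNA per cell cannot be told apart.

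In this family the ligands are made as membrane-bound precursors, are cut free by ADAM metalloproteases, and bind receptor tyrosine kinases that act in pairs. Egfr binds Tgfa and Areg, and Hbegf binds both Egfr and Erbb4. Erbb2 has no known ligand and serves as a partner, while Erbb3 binds neuregulins, has very little kinase activity of its own and signals through a partner to PI3-kinase. In the embryonic kidney, ligands of Egfr are known from culture work as factors that act on growth of the bud and on cells of the mesenchyme.

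Summed bud epithelium and nephron progenitor markers followed the labels in mouse, while the sums of stromal and ureteric mesenchyme markers were high in stalks too. Summed over 7 bud epithelium markers, the intensity was 22648 to 23385 in tips, 11452 to 11612 in stalks and 465 to 529 in mesenchyme. Summed over 6 nephron progenitor markers it was 627 to 729 in tips, 1704 to 1762 in stalks and 5310 to 5390 in mesenchyme. The 5 stromal markers summed to 344 to 482 in tips, 5466 to 5562 in stalks and 5004 to 5006 in mesenchyme, and the 4 markers of ureteric mesenchyme and smooth muscle to 368 to 377 in tips, 3868 to 3962 in stalks and 1948 in mesenchyme. Between stalks and mesenchyme, 2 stromal markers were called higher in stalks and 1, Foxd1, lower (-1.13), where 2.35% and 0.426% of all tested probe sets were. Of the ureteric mesenchyme markers 2 were called higher and 0 lower. Among them Acta2 averaged 173 in tips, 178 in stalks and 290 in mesenchyme. On rat design A, 3 of 4 tested bud markers were called higher in buds and Gata3 was not (205 in buds, against 202 in mesenchyme). Another Gata3 probe set, on rat design C, was called higher in buds (3.58, limma adjusted p = 0.000246). Gapdh control probes at the 3' end read 4.26 to 5.28 times those at the 5' end in labeling 2 of the rat bud on the 3 designs. The range was 1.25 to 1.47 times on the other rat arrays and 0.90 to 1.01 times in mouse. Rat differences of family and pathway genes are therefore given with and without that bud labeling.

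Values are intensities after quantile normalisation within each table. Differences are on the log2(intensity + 16) scale, which understates those of dim probe sets, and levels are compared between tissues on 1 probe set at a time. A probe set was tested where at least 1 tissue reached the table's median (49.3 in mouse, 111, 118 and 115 in rat designs A, B and C), and it was called at a limma adjusted p under 0.05 with at least a 2-fold difference. In each mouse comparison 0 tested probe sets with a 2-fold difference missed the adjusted p, so a mouse call rests on the 2-fold limit alone. On rat designs A, B and C, 56, 22 and 30 missed it. Of the family's probe sets, 13 of 16 in mouse and 4 of 10 in rat design A were tested, and the single probe sets of designs B and C were too dim. In mouse, 4 of 13 were called between tips and stalks, where 4.59% of all 23919 tested probe sets were, 4 of 13 between tips and mesenchyme (8.17% of all), and 1 of 13 between stalks and mesenchyme (2.77% of all). These 3 comparisons share arrays, and the genes were chosen with earlier results of these data known, so the shares are a description only. The calls fell on Erbb3, Egfr and Tgfa, and the median difference over the 13 was 0.07, 0.27 and 0.20 in that order, beside 0.06, 0.01 and -0.05 over all tested probe sets. In rat, 0 of 4 were called, where 5.78% of the 4616 tested on design A, 5.78% on design B and 4.63% on design C were, and limma gave 0 of the 4 an unadjusted p under 0.05.

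**Figure D1:**
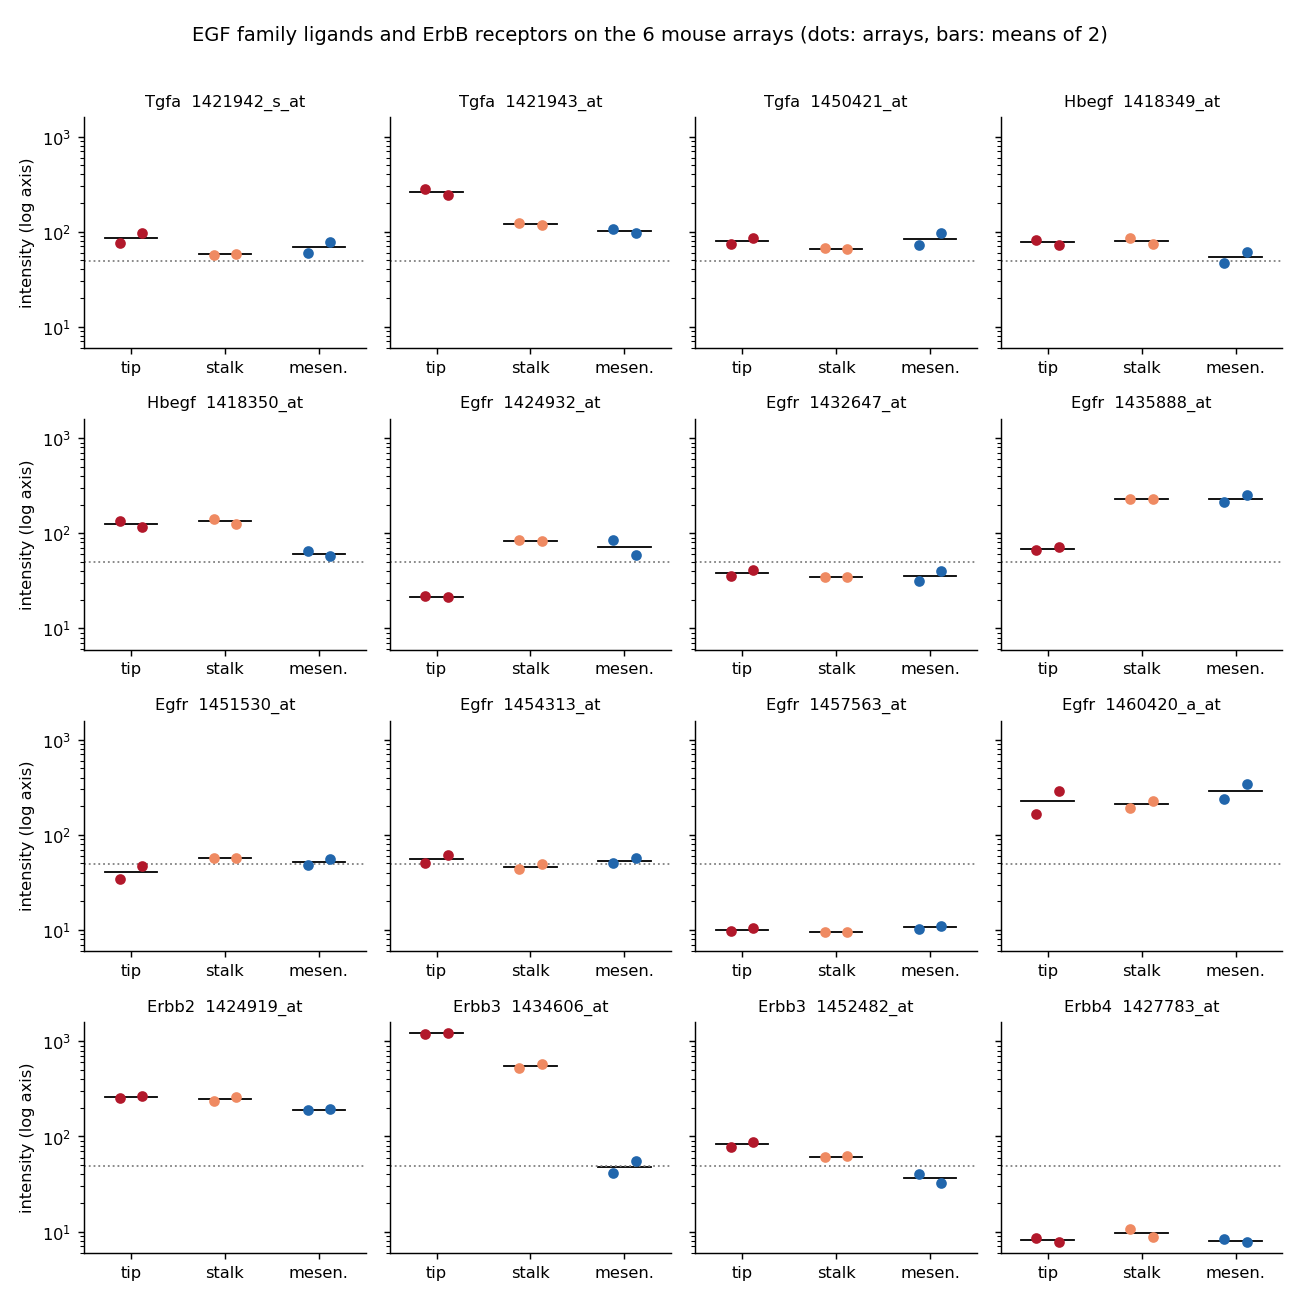
Intensity (log axis) of the 16 mouse probe sets in tips, stalks and mesenchyme, with a dot for each array, a bar at the mean of 2 arrays and a dotted line at the table median of 49.3. Erbb3 1434606_at descends in steps across the 3 tissues, Egfr 1435888_at and 1424932_at are low in tips alone, and Tgfa 1421943_at is high in tips alone.

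Among the receptors, Erbb3 had the widest range of any family probe set in mouse. Probe set 1434606_at read 1203 and 1233 in tips, 518 and 579 in stalks, and 41.0 and 54.6 in mesenchyme. The 3 tissues did not overlap, and the order was tip, stalk, mesenchyme, with mesenchyme near the table median. Tips were 4.28 ± 0.11 (SE, n = 2 arrays each) above mesenchyme on the log2 scale, which is 19.4-fold (limma adjusted p = 1.2e-08), and stalks were 3.15 ± 0.11 above mesenchyme, or 8.88-fold (limma adjusted p = 2.76e-07). The tip-to-stalk difference was 1.13 ± 0.11, or 2.19-fold (limma adjusted p = 8.86e-05). All 3 calls held under each alternative processing of this probe set, at 3.52 to 4.65, 2.45 to 3.50 and 1.06 to 1.21.

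The other mouse Erbb3 probe set, 1452482_at, had the same order of tissues. It read 78.2 and 88.3 in tips, 60.8 and 61.9 in stalks, and 40.1 and 32.8 in mesenchyme, again with no overlap. Its differences were under the 2-fold limit, at 0.92 for tip minus mesenchyme (limma adjusted p = 0.000875), 0.57 for stalk minus mesenchyme (limma adjusted p = 0.0292) and 0.36 for tip minus stalk (limma adjusted p = 0.0901). The tip minus mesenchyme difference was called under 2 of 14 alternatives, at 1.18 with a pseudocount of 1 and 1.02 without mesenchyme labeling 1. With the mean of both probe sets standing for the gene, Erbb3 was still called for tip minus mesenchyme (2.60) and stalk minus mesenchyme (1.86), but its tip minus stalk difference of 0.74 was not called.

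Neural crest and Schwann cell precursors are known to express Erbb3, and 3 of 5 markers listed for them were analysed. Their summed intensity was 149 to 153 in tips, 173 to 182 in stalks and 212 to 231 in mesenchyme, and 0 of the 2 tested were called in any mouse comparison (limma gave 1, 2 and 1 an unadjusted p under 0.05). Fabp7 was lower in tips than in stalks (-0.69, limma adjusted p = 0.00655) and mesenchyme (-0.83, limma adjusted p = 0.00192), under 2-fold. Sox10 did not pass the adjusted p in any mouse comparison. On rat design A, 3 of the 5 markers summed to 275 to 318 in buds and 907 to 990 in mesenchyme. The 1 tested there, Foxd3, was called lower in buds (-1.78, limma adjusted p = 0.000565). It was read on L13202_f_at, and the stromal marker Foxd1, a relative, on L13192_f_at of the same design (-2.92, limma adjusted p = 9.79e-05). Whether either probe set also reads the other gene was not tested. The part of these cells in the Erbb3 signal was not tested. By the distance between the 3 tissue means, each gene centred on its own mean, the genes most like Erbb3 among 12353 were Kdf1 (distance 0.12), Kcnk1 (0.12) and Npnt (0.14). Kcnk1 encodes a two-pore potassium channel and Npnt a basement membrane ligand of integrin alpha 8. Their tip minus mesenchyme differences were 4.27, 4.11 and 4.39, and likeness here rests on 3 tissues.

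Erbb2, the partner without a ligand, was nearly level. Probe set 1424919_at read 252 and 267 in tips, 237 and 261 in stalks, and 188 and 194 in mesenchyme. Tips and stalks overlapped, with a difference of 0.06 and a 95% interval from -0.15 to 0.26. Both lay above mesenchyme with no overlap, by 0.42 in tips (limma adjusted p = 0.00681) and by 0.36 in stalks (limma adjusted p = 0.0321), which is 1.33-fold and 1.28-fold and so not called. The tip-to-stalk difference of Erbb2 turned to -0.05 with median scaling.

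Egfr went the other way from Erbb3 in tips, on 2 of its 7 mouse probe sets. Probe set 1435888_at read 67.0 and 71.0 in tips, 229 and 228 in stalks, and 212 and 251 in mesenchyme. Stalks and mesenchyme overlapped and tips lay below both. The tips were lower by 1.53 ± 0.12 than stalks (log2 difference -1.53, SE, limma adjusted p = 2.28e-05) and by 1.54 ± 0.12 than mesenchyme (log2 difference -1.54, limma adjusted p = 1.1e-05), which is 2.88-fold and 2.90-fold. Stalk minus mesenchyme was -0.01, with a 95% interval from -0.27 to 0.25. Both tip calls held under every alternative run on this probe set, at -1.71 to -1.14 against stalks and -1.73 to -1.15 against mesenchyme.

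Probe set 1424932_at of Egfr had the same shape. It read 21.9 and 21.2 in tips, 84.4 and 83.1 in stalks, and 84.6 and 59.1 in mesenchyme. Tips again lay below all other arrays, while stalks and mesenchyme overlapped. The difference was -1.41 from stalks (limma adjusted p = 0.000272) and -1.21 from mesenchyme (limma adjusted p = 0.000419). A pseudocount of 64 ended both calls (-0.79 and -0.66), and leaving out mesenchyme labeling 1 ended the second (-0.9997).

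Of the other Egfr probe sets none was called. Probe set 1460420_a_at, which stands for the gene by its highest mean level, read 166 and 291 in tips, 190.3 and 229 in stalks, and 237 and 339 in mesenchyme. Its fitted differences had the largest error of the 13 tested mouse family probe sets (SE 0.24), and none of its differences passed, with tip minus stalk at 0.07 and a 95% interval from -0.47 to 0.62. For 1451530_at, tips averaged 40.6 ± 8.5, stalks 57.2 ± 0.7 and mesenchyme 52.4 ± 5.1 (SD, n = 2 each). Its tips also lay below all other arrays, by differences of -0.38 from stalks (limma adjusted p = 0.0952) and -0.28 from mesenchyme (limma adjusted p = 0.204) that did not pass. For 1454313_at, tips averaged 56.2 ± 7.4, stalks 46.3 ± 3.8 and mesenchyme 53.5 ± 4.6 (SD, n = 2 each), and no difference passed. The untested 1432647_at averaged 34.6 to 38.6 and 1457563_at 9.47 to 10.6 over the 3 tissues. With the mean of the Egfr probe sets standing for the gene, tip minus stalk was -0.41 and was not called.

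Beside the low Egfr signal of tips stand the marker sums that are also low there. All 5 stromal markers were called lower in tips than in stalks and in mesenchyme, where 3.64% and 4.26% of all tested probe sets were. Of the 4 markers of ureteric mesenchyme and smooth muscle, 3 were called lower in tips in both comparisons. The 6 endothelial markers summed to 531 to 536 in tips, 1323 to 1364 in stalks and 2069 to 2088 in mesenchyme, and 4 were called lower in tips than in stalks and 6 lower than in mesenchyme. The 6 macrophage markers summed to 295 to 367 in tips, 521 to 551 in stalks and 776 to 805 in mesenchyme, and of 5 tested 1 was called lower in tips than in stalks and 2 lower than in mesenchyme. Among them Ptprc ran the other way, at 0.90 for tip minus mesenchyme (limma adjusted p = 0.00788), under 2-fold. Nephron progenitor markers (6 tested) had 2 called lower in tips than in stalks and 5 lower than in mesenchyme. Neuronal markers (4 tested) had 2 and 3 called lower, and none of either list was called higher in tips. The part of these cells in the Egfr difference was not tested.

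Erbb4, a receptor for neuregulins and Hbegf, was dim in every mouse tissue. Its probe set 1427783_at averaged 8.15 ± 0.54 in tips, 9.75 ± 1.25 in stalks and 8.01 ± 0.46 in mesenchyme (SD, n = 2 each). The 3 means lay at percentiles 3.77, 8.001 and 3.40 of the probe sets, and it was not tested. The deposited values carry no detection call, so whether it lay above background is unknown.

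**Figure D2:**
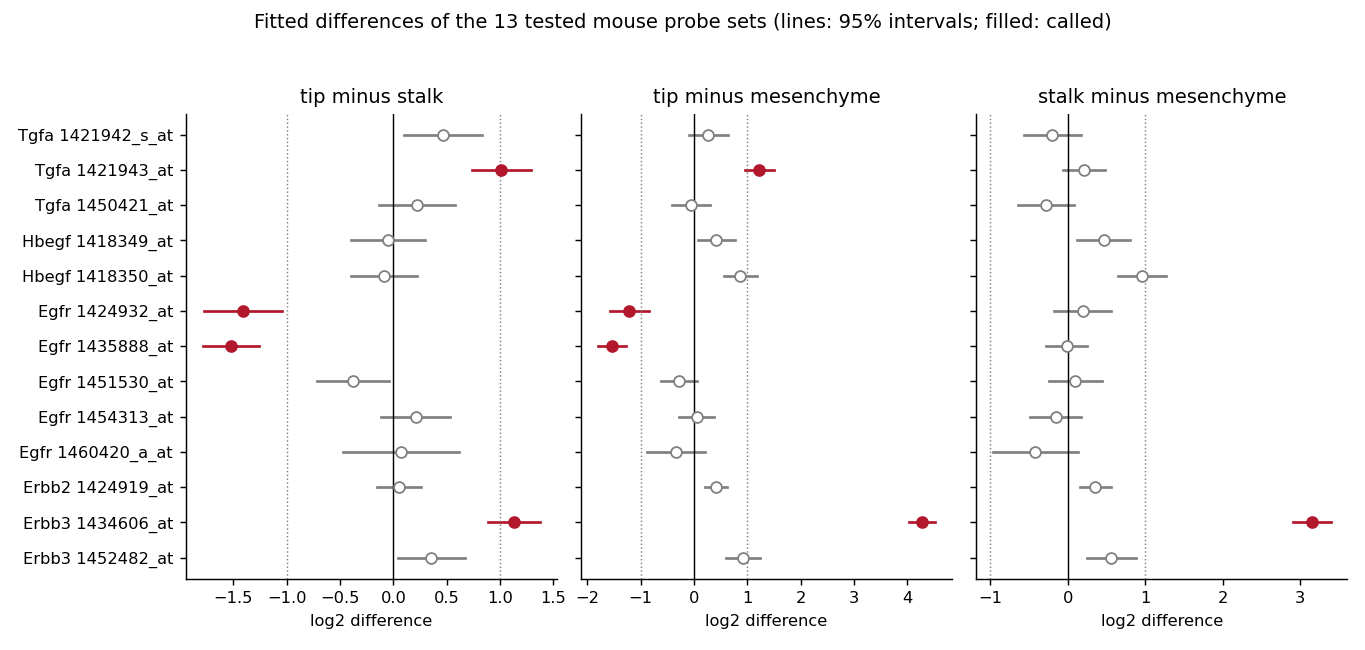
Fitted log2 differences of the 13 tested mouse probe sets for tip minus stalk, tip minus mesenchyme and stalk minus mesenchyme, with 95% intervals, filled where called and with dotted lines at 2-fold. Erbb3 1434606_at is called in all 3 panels, Egfr 1435888_at and 1424932_at lie on the negative side in both tip panels, and Tgfa 1421943_at is at 1.01 and 1.23 in them.

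Among the ligands, Tgfa was higher in tips on 1 of its 3 mouse probe sets. Probe set 1421943_at read 279 and 242 in tips, 124 and 117 in stalks, and 108 and 95.9 in mesenchyme. No tissues overlapped. Tips were above mesenchyme by 1.23 ± 0.12 (SE, limma adjusted p = 6.03e-05) and above stalks by 1.01 ± 0.12 (SE, limma adjusted p = 0.000323), while stalk minus mesenchyme was 0.21 (limma adjusted p = 0.327). The tip-to-stalk call sits at the 2-fold limit and ended under 6 of 15 alternatives: at 0.91 with median scaling, 0.93 with the values as deposited, 0.81 with a pseudocount of 64, 0.91 without tip labeling 1, 0.98 without stalk labeling 2, and at an adjusted p of 0.0722 in a test against 1.5-fold. The call against mesenchyme ended under 1 of 15, at 0.97 with a pseudocount of 64.

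Both other Tgfa probe sets were not called. Probe set 1421942_s_at averaged 86.1 ± 14.5 in tips, 57.6 ± 1.9 in stalks and 68.8 ± 12.4 in mesenchyme (SD, n = 2 each), with a tip minus stalk difference of 0.47 (limma adjusted p = 0.0603). Probe set 1450421_at averaged 80.1 ± 8.4 in tips, 66.3 ± 1.6 in stalks and 84.6 ± 17.9 in mesenchyme (SD, n = 2 each), with 0.22 for tip minus stalk and -0.06 for tip minus mesenchyme. On both, tips overlapped mesenchyme. With the mean of the 3 probe sets standing for the gene, Tgfa differed by 0.57 from stalks and 0.48 from mesenchyme in tips and was called in neither. The genes most like Tgfa 1421943_at over the 3 tissues were Gng3 (distance 0.05), a G protein gamma subunit, Card10 (0.05), a signalling scaffold, and Hoxb6 (0.06), a homeobox factor.

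Hbegf was higher in both bud tissues than in mesenchyme, under the 2-fold limit. Probe set 1418350_at read 134 and 116 in tips, 142 and 125 in stalks, and 64.5 and 57.3 in mesenchyme. Tips and stalks overlapped, with a difference of -0.09 and a 95% interval from -0.39 to 0.22, and both lay above mesenchyme. Stalk minus mesenchyme was 0.96, or 1.94-fold (limma adjusted p = 0.00159), and tip minus mesenchyme was 0.87, or 1.83-fold (limma adjusted p = 0.00106). The stalk difference passed 2-fold under 5 of 14 alternatives (1.01 to 1.12) and the tip difference under 1 of 14 (1.02, with a pseudocount of 1). The second probe set, 1418349_at, had the same direction, with tips at 77.1 ± 6.8, stalks at 80.2 ± 7.7 and mesenchyme at 54.0 ± 10.0 (SD, n = 2 each), and did not pass (limma adjusted p = 0.0666 for tip and 0.088 for stalk minus mesenchyme).

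**Figure D3:**
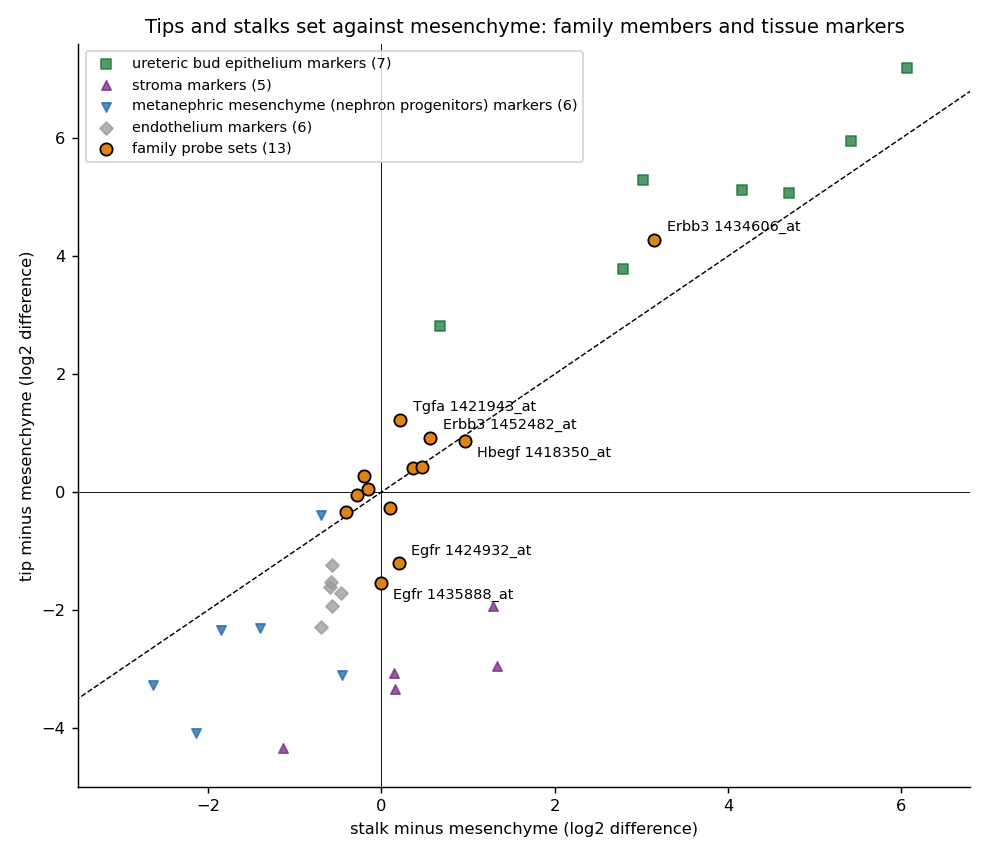
Stalk minus mesenchyme (horizontal axis) against tip minus mesenchyme (vertical axis), both log2 differences, for the 13 tested family probe sets and for the tested markers of bud epithelium, stroma, nephron progenitors and endothelium, with a dashed line where tip and stalk are equal. Erbb3 1434606_at lies at 3.15 and 4.28 among the bud markers, and both low Egfr probe sets lie near 0 on the horizontal axis and under -1 on the vertical one, between the other family probe sets and the stromal markers.

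The promoters of Tgfa and Egfr are shown because their called probe sets, not all their probe sets, went opposite ways in mouse tips. Only rat promoters were at hand, from RefSeq on build GRCr8, both on the plus strand, and Erbb3 is not among them. Each line gives the 250 bases before the annotated gene start, 5′ to 3′, for Tgfa at chr4:120175469-120175718 and for Egfr at chr14:95378376-95378625. Capitals mark matches to the AP-2 pattern GCCNNNGGC, which reads the same on both strands.
Tgfa: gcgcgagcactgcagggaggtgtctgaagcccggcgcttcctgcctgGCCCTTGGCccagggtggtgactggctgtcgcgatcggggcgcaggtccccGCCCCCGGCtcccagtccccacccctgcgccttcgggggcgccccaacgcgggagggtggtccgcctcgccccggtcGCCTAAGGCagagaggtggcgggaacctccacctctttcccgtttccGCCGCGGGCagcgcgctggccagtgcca
Egfr: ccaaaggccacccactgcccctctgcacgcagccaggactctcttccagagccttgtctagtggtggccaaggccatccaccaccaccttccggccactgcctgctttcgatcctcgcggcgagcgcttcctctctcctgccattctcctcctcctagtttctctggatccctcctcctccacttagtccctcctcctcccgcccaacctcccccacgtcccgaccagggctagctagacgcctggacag
The Tgfa window held 4 matches and the Egfr window 0. Over all 33469 promoters of the table, 12.6% held at least 1 match in the same window, and 20 of them (0.0598%) held 4 or more, a count looked up after the Tgfa matches were seen. The grainyhead-like pattern AACCNGTT, searched on both strands, was in neither window and in 1.76% of all. A match is a description of the letters only, and the tip differences were measured in mouse.

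In rat, none of the 4 tested family probe sets was called on design A. Erbb3, the gene with the largest mouse differences, read 122 and 121 in buds, against 88.0 and 109.5 in mesenchyme, on U29339_at, and 127 and 128 in buds, against 98.0 and 126 in mesenchyme, on U52530_s_at. After normalisation buds lay above mesenchyme on both probe sets without overlap, but by only 0.27 (limma adjusted p = 0.345) and 0.17 (limma adjusted p = 0.587). Their 95% intervals ended at 0.64 and 0.55. On U52530_s_at the nearest arrays read 126.9 in buds and 126.4 in mesenchyme. The deposited values of that probe set overlapped, at 126.5 and 126 in buds, against 99.9 and 126.4 in mesenchyme. On design B, rc_AA924236_at of Erbb3 read 76.7 and 58.9 in buds, against 42.1 and 35.7 in mesenchyme, a difference of 0.60 (0.76 without bud labeling 2) on a probe set too dim to be tested.

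Rat Erbb2 (X03362_at) read 362 and 329.5 in buds, against 298 and 343 in mesenchyme. The tissues overlapped, with a difference of 0.11 and a 95% interval from -0.22 to 0.44 (limma adjusted p = 0.706). Rat Egfr (M37394_at) read 138.3 and 141.5 in buds, and 141.6 and 170.3 in mesenchyme. Its buds lay just under mesenchyme, by a difference of -0.14 with a 95% interval from -0.48 to 0.21 (limma adjusted p = 0.633). The 5 stromal markers summed to 503 to 565 in these buds, against 2358 to 2700 in mesenchyme. Without the second bud labeling, the one with the high Gapdh ratio, the 4 tested differences were 0.27 and 0.16 for Erbb3, 0.17 for Erbb2 and -0.15 for Egfr, and none was called.

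The rat ligands and Erbb4 were under the median of design A in both tissues and were not tested. Tgfa (M31076_at) read 103 and 79.8 in buds, against 69.6 and 78.9 in mesenchyme, so that buds were just above. Hbegf overlapped between tissues on all 3 of its probe sets, at 36.5 and 29.3 in buds, against 39.7 and 31.8 in mesenchyme, on L05489_at, and at 82.8 and 72.9 in buds, against 77.8 and 73.3 in mesenchyme, on rc_AI059540_at. On design C its probe set rc_AA818658_at read 56.9 and 67.7 in buds, against 57.2 and 61.3 in mesenchyme. Areg (X55183_at) read 24.5 and 23.5 in buds and 28.2 and 20.6 in mesenchyme, about the 12th percentile of the array. Without bud labeling 2 the difference was 0.41 for Tgfa (0.25 with it), 0.01 for Areg (-0.01), and 0.02 (-0.08), 0.11 (0.03) and -0.05 (0.05) for the Hbegf probe sets in the order above.

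Erbb4 was apart between the labelings of the bud rather than between tissues. Probe set AF041838_at read 58.2 and 31.5 in buds, against 38.0 and 39.8 in mesenchyme, and AF041838_g_at read 31.7 and 19.1 in buds, against 26.9 and 25.1 in mesenchyme. On both, the labeling with the high Gapdh ratio was the lower bud value and mesenchyme lay between the bud arrays. The differences were 0.11 and -0.04, and without that labeling 0.44 and 0.19. Set beside each other by gene symbol, the Erbb3 differences from mesenchyme on the 2 mouse probe sets were 4.28 and 0.92 in tips and 3.15 and 0.57 in stalks, and those of the 3 rat probe sets were 0.27, 0.17 and 0.60 in buds, none of which passed a test. These are different probes, stages and dissections, and no test was made between species.

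**Figure D4:**
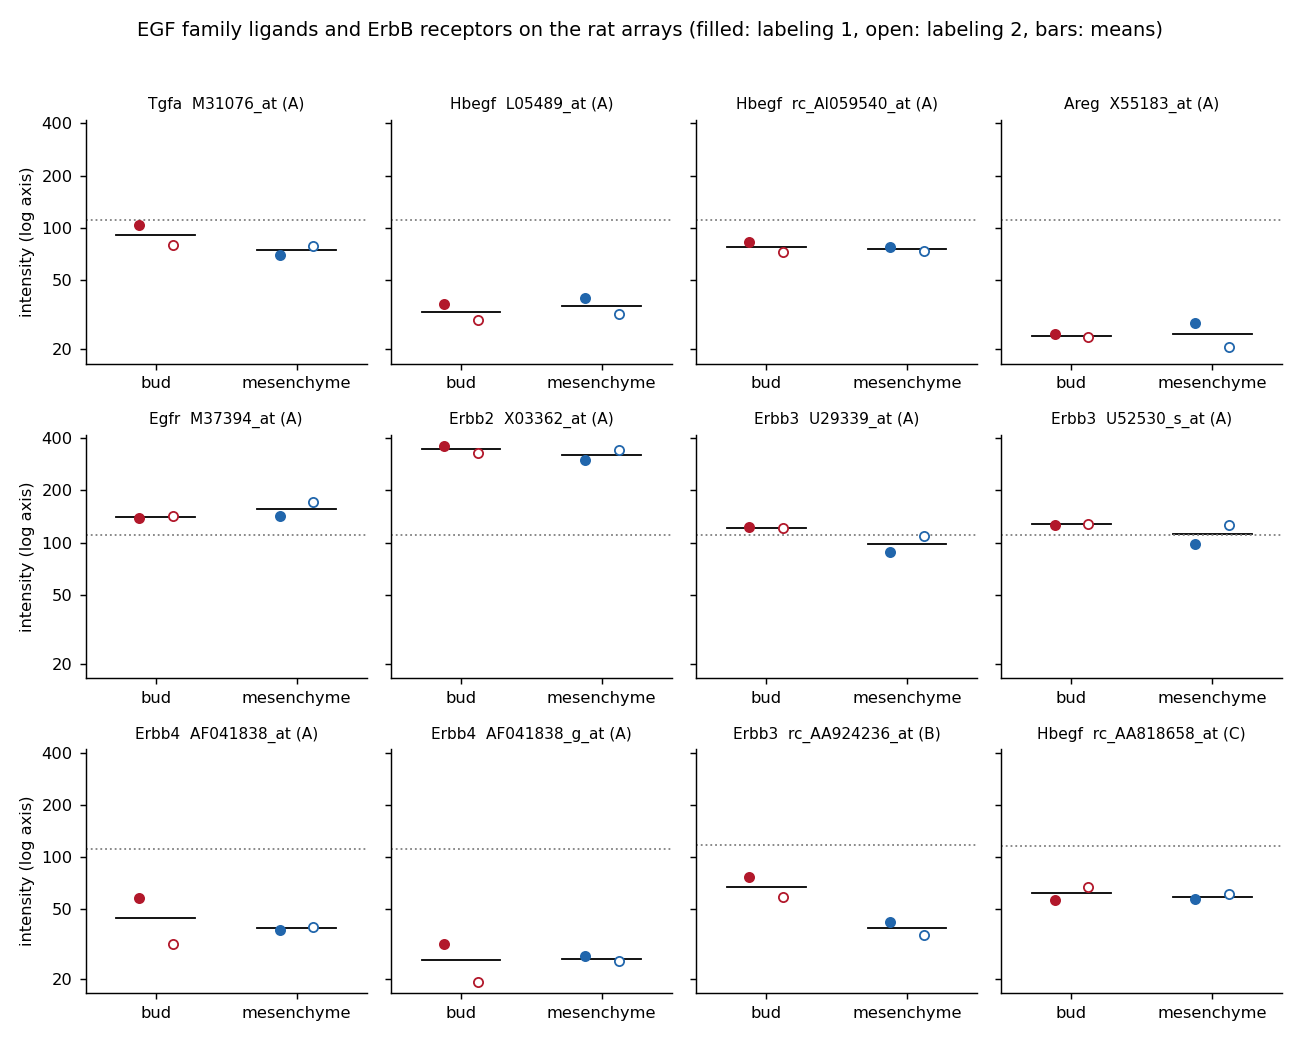
Intensity (log axis) of the 12 rat probe sets in buds and mesenchyme, with the array design in brackets, labeling 1 filled, labeling 2 open, a bar at each mean and a dotted line at the median of the design. Only Egfr, Erbb2 and both Erbb3 probe sets of design A reach the line in some tissue, and their buds and mesenchyme lie close together.

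Further genes of the pathway were followed by lists, through the brightest probe set of each gene. Of 8 other EGF family ligands, 2 were tested in mouse (Btc and Nrg2) and 0 were called, with an unadjusted limma p under 0.05 for 1 in tip minus mesenchyme alone. Betacellulin (Btc), a ligand of Egfr and Erbb4, read 75.2 and 46.4 in tips, 44.8 and 36.6 in stalks, and 23.5 and 37.0 in mesenchyme. It was tested only because tips passed the filter, and stalks and mesenchyme overlapped. Neuregulin 1 (Nrg1), a ligand of Erbb3, read 14.2 to 21.3 over the 6 mouse arrays, under the table median, and overlapped between tissues on rat design A at 153 and 174 in buds, against 159.6 and 168 in mesenchyme (-0.09 without bud labeling 2).

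Of 8 genes for ligand release, 2 were called lower in tips than in stalks (3.64% of all tested probe sets were) and than in mesenchyme (4.26% of all were), and 0 were called between stalks and mesenchyme, where 5 had an unadjusted limma p under 0.05. Adam12, a metalloprotease known to shed Hbegf in heart, read 72.2 and 73.2 in tips, 230.1 and 244 in stalks, and 292 and 275 in mesenchyme (-1.51 from stalks and -1.75 from mesenchyme). Adam19, a relative that cuts neuregulins in cell culture, read 139 and 148 in tips, 499 and 464 in stalks, and 632 and 555 in mesenchyme (-1.64 and -1.93). Tips lay far below both other tissues on these 2 genes. Adam17, the main protease for Tgfa, Hbegf and Areg, averaged 426 ± 8 in tips, 352 ± 30 in stalks and 333 ± 23 in mesenchyme (SD, n = 2 each) and was not called. On rat design B, Adam19 read 205 and 205 in buds, against 376 and 412 in mesenchyme, a difference of -0.89 that missed 2-fold (limma adjusted p = 0.00334) and was -0.88 without bud labeling 2. The list's median was -0.08, -0.19 and -0.22 for tip minus stalk, tip minus mesenchyme and stalk minus mesenchyme.

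Of 10 inhibitors and turnover genes, 1 was called between tips and mesenchyme, a share near the 8.17% of all probe sets, and 0 in the other mouse comparisons, where limma gave 5 an unadjusted p under 0.05 each time. It was Lrig3, of a family of transmembrane proteins that bind ErbB receptors. It read 231 and 169 in tips, 279 and 272 in stalks, and 441 and 421 in mesenchyme, with a tip minus mesenchyme difference of -1.06 (limma adjusted p = 0.000205). On rat design C it read 92.3 and 127 in buds, against 264 and 283 in mesenchyme, and was called there too (-1.22, limma adjusted p = 0.0106, with all arrays). The difference was -1.41 without bud labeling 2. Its bud mean lay under the filter of 115, so it was tested there only because mesenchyme, where it is high, passed. In both species the bud arrays lay below all mesenchyme arrays.

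Of 11 adaptors and PI3-kinase genes, 1 was called in each mouse comparison, where 4.59%, 8.17% and 2.77% of all probe sets were, and it was Grb7 every time. Grb7 encodes an adaptor that binds phosphorylated Erbb2 and Erbb3, and its gene neighbours Erbb2. It read 1119 on both tip arrays, 513 and 487 in stalks, and 73.9 and 84.9 in mesenchyme. The tissues stood in the same order as for Erbb3 1434606_at, with differences of 1.14 for tip minus stalk, 3.57 for tip minus mesenchyme and 2.44 for stalk minus mesenchyme (limma adjusted p = 1.21e-05, 5.56e-09 and 1.91e-07). The list's medians were -0.13, -0.27 and -0.06. Of the 9 genes of the Ras-ERK cascade, 4 were analysed in mouse and 0 were called (limma gave 2, 1 and 1 an unadjusted p under 0.05), with list medians between -0.07 and 0.13 over the 3 comparisons.

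The 12 ERK-induced outputs and feedback genes, which other receptors such as Ret and the FGF receptors also drive, had the most calls of the 6 lists in mouse. Between tips and stalks 3 were called higher and 1 lower, where 0.953% and 3.64% of all tested probe sets were. Between tips and mesenchyme 4 were called higher and 1 lower, where 3.9% and 4.26% of all were. Between stalks and mesenchyme 0 were called, where 2.77% of all were, and limma gave 9 of the 12 an unadjusted p under 0.05. The list's medians were 0.52, 0.55 and 0.05. Etv4, an ETS factor, read 680.4 and 694 in tips, 172 and 162 in stalks, and 253 and 275 in mesenchyme. Its relative Etv5 read 1406 and 1331 in tips, 366 and 327 in stalks, and 458 and 374 in mesenchyme. Both were thus high in tips alone, by 1.94 and 1.94 over stalks and by 1.33 and 1.69 over mesenchyme.

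Spry1, a feedback inhibitor of receptor tyrosine kinases, read 2628 and 2740 in tips, 959 and 977 in stalks, and 744 and 743 in mesenchyme (1.46 over stalks, 1.83 over mesenchyme). Fos, an immediate-early gene, was the only gene of the list called lower in tips (-1.57 and -1.20). It read 2328 and 2177 in tips, 6691 and 6709 in stalks, and 4987 and 5437 in mesenchyme. Under 2-fold, the ERK phosphatase Dusp6 was higher in tips than in stalks (0.89, limma adjusted p = 1.61e-06) and mesenchyme (0.95, limma adjusted p = 4.81e-07). Spred2 was higher too (0.78 and 0.62, limma adjusted p = 2.8e-05 and 7.07e-05), and Spry2, Spry4 and Spred1 lay on the positive side in both comparisons. Myc was lower in tips than in mesenchyme (-0.45, limma adjusted p = 0.000384) and near level with stalks (0.02). Egr1 was lower in tips than in stalks (-0.15, limma adjusted p = 0.0443) but higher than in mesenchyme (0.49). The remaining call was Ccnd1, cyclin D1, at 1.08 for tip minus mesenchyme. On rat design A 3 of the 6 tested were called, where 5.78% of all tested probe sets were, and all 3 were higher in buds. They were Spry1 by 2.06, the immediate-early gene Egr1 by 1.27 and Ccnd1 by 1.23 (1.88, 1.12 and 1.16 without bud labeling 2). On design B 0 of 3 and on design C 0 of 4 were called, and 2 on each had an unadjusted limma p under 0.05. Among these, Ccnd1 was at 0.77 on design B (0.85 without bud labeling 2), and Dusp6 at 0.93 on design C (0.98) and -0.21 on design A (0.12). Rat Etv5 was at 0.24 on design B (0.23 without bud labeling 2) and 0.47 on design C (0.80). Rat Spry1 read 1867 and 2418 in buds, against 474 and 519.7 in mesenchyme, well apart.

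**Figure D5:**
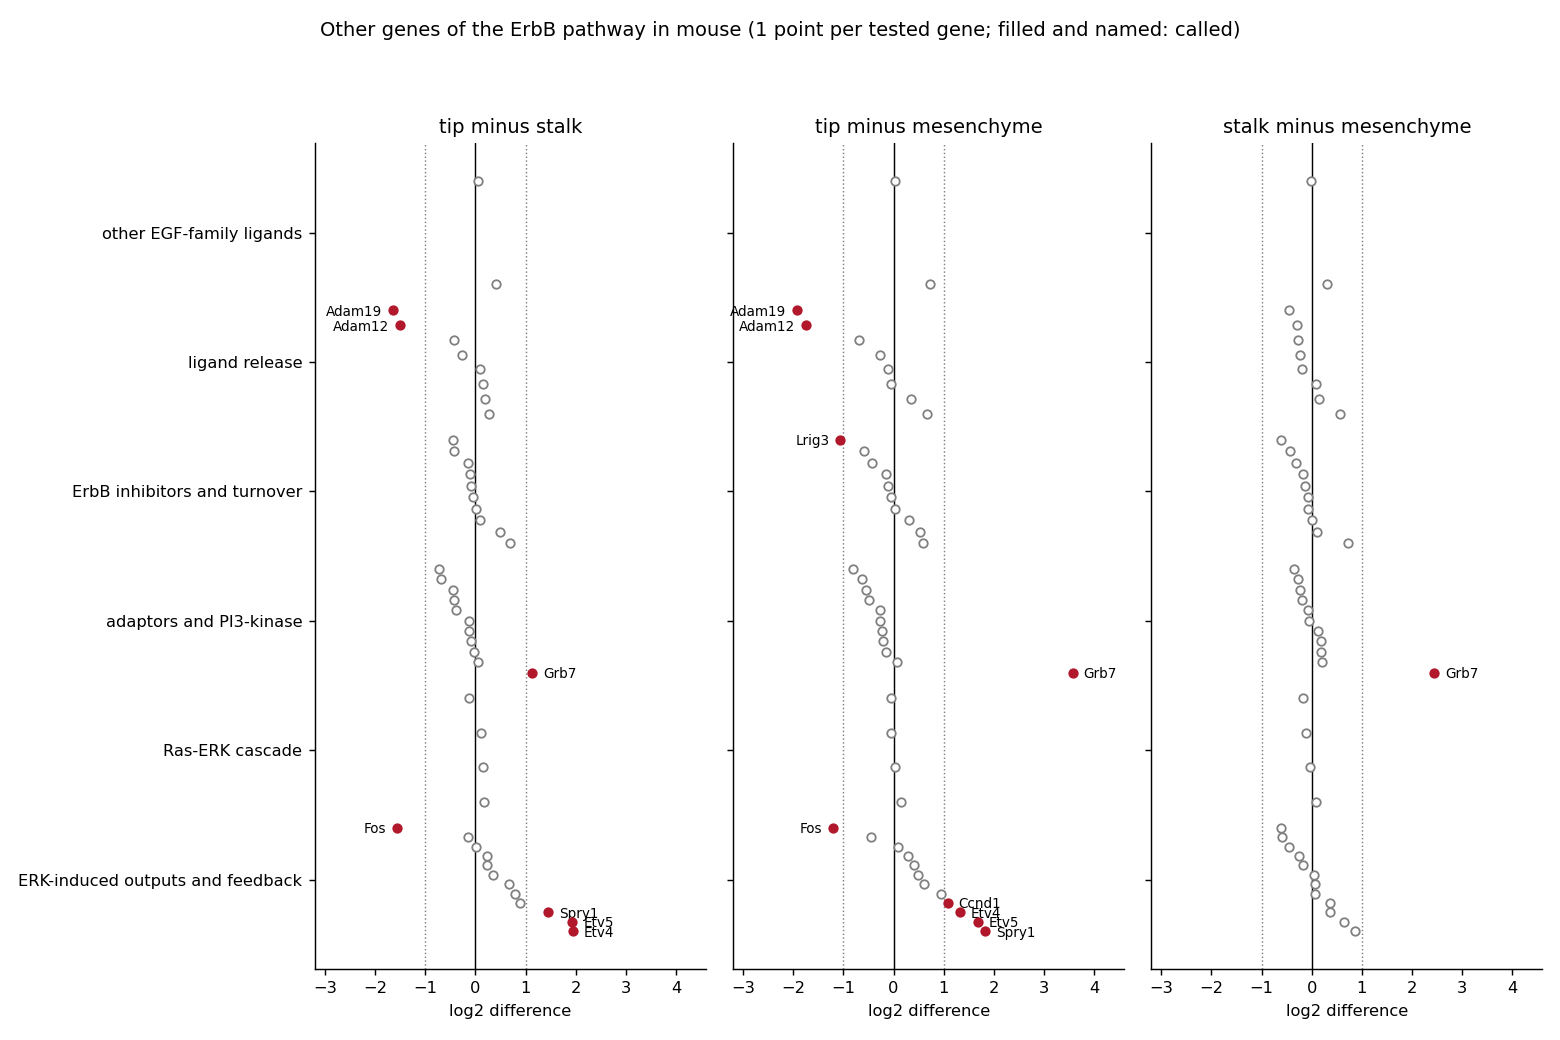
Log2 differences of the tested mouse genes of 6 pathway lists for tip minus stalk, tip minus mesenchyme and stalk minus mesenchyme, with 1 point for each gene and filled, named points where called. Grb7 is the gene called in all 3 panels (1.14, 3.57 and 2.44), Adam12 and Adam19 lie below -1 in both tip panels, and Etv4, Etv5 and Spry1 lie above 1 in them.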

How the data were processed

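The deposited values are linear intensities, 1 for each probe set and array, all above 0. How the authors summarised and scaled them is not given in the sources used here. RNA was labelled in duplicate from 1 ug of each pool, per the labels' descriptions. Each table was quantile normalised by itself and put on the log2 scale after adding 16, and the control probe sets (64 in mouse, 59 per rat design) were left out. limma 3.58.1 in R 4.3.3 (lmFit, eBayes with an intensity trend) was fitted to all 6 mouse arrays together and to each rat design by itself, with Benjamini-Hochberg adjustment over every tested probe set. A simulation with known changes was used to test the fit. Gene names are those of the platform annotation, used where it gives 1 symbol. The brightest tested probe set stood for a gene of a list, and at most the 4 called genes with the largest differences were to be named per list and comparison. Ccnd1 in mouse was named beyond that rule. Members and lists were chosen with earlier results of these data known. Alternatives were other scalings, pseudocounts of 1 and 64, other filters, no trend, a test against 1.5-fold, a replicate block, a mean over probe sets and each array left out. Rat list genes without bud labeling 2 were added after the data were seen. Same-numbered arrays deviated together (correlations 0.22 to 0.57), but the labels tie the numbers to no batch, so they were not treated as pairs. The number of arrays limits the precision.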

Additional observations from a re-analysis of the deposited data

Results flagged for a closer look

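Tips and stalks are both bud tissue, and their differences from the same mesenchyme arrays parted on 4 family probe sets, as the tested tip minus stalk difference shows. It was 1.01 for Tgfa 1421943_at, -1.41 for Egfr 1424932_at, -1.53 for Egfr 1435888_at and 1.13 for Erbb3 1434606_at. For Erbb3 tips and stalks moved the same way and tips moved farther. For Egfr and Tgfa the tips stood off while the stalk minus mesenchyme difference did not pass the limma test.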

How the results depend on the processing

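Of 774 values recomputed under 1 changed setting, 710 were rated the same. A difference was so rated if it kept its direction and side of the threshold, and a count of calls if it stayed within 1.5-fold. Counts of called probe sets made up 122 of the 710, and 20 further such counts moved. Between tips and stalks, a pseudocount of 64 left 2 family probe sets and 671 of all called, and between tips and mesenchyme it left 2 and 1266. With only probe sets above the 75th percentile tested, which leaves fewer to call, 1286 of all were called between tips and mesenchyme. Between stalks and mesenchyme, median scaling, the values as deposited and a pseudocount of 1 each gave 2 family probe sets (Hbegf 1418350_at joined Erbb3 1434606_at), and a pseudocount of 64 left 392 of all. With 1 array left out, family calls ranged from 3 to 4, 4 to 4 (without mesenchyme labeling 1, Erbb3 1452482_at came in and Egfr 1424932_at dropped out), and 1 to 2 in the 3 mouse comparisons and stayed at 0 on rat design A, where the count at an unadjusted p under 0.05 in the limma fit with all arrays was also 0. The counts over all probe sets then ranged over 1065 to 1250, 1938 to 2023, and 648 to 698 in mouse, and over 243 to 477, 228 to 369, and 77 to 360 on rat designs A, B and C. The 477 and the 360 came without bud labeling 1, and 77 and 82 on design C without mesenchyme labeling 1 or 2. A test against 1.5-fold called 160, 164 and 127 on the rat designs, and on design B a pseudocount of 64 gave 172 and the 75th percentile filter 176. The cause of these shifts was not tested.

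The results that changed direction had not been called. With median scaling and with the values as deposited, tip minus stalk was -0.053 and -0.028 for Egfr 1460420_a_at and -0.054 and -0.030 for Erbb2 1424919_at, and stalk minus mesenchyme was 0.097 and 0.075 for Egfr 1435888_at. With 1 array left out, tip minus stalk ranged from -0.13 to 0.034 for Hbegf 1418349_at, from -0.17 to 0.0035 for Hbegf 1418350_at, from -0.30 to 0.44 for Egfr 1460420_a_at and from -0.0084 to 0.12 for Erbb2 1424919_at. Tip minus mesenchyme ranged from -0.24 to 0.13 for Tgfa 1450421_at, from -0.054 to 0.16 for Egfr 1454313_at and from -0.72 to 0.033 for Egfr 1460420_a_at. Stalk minus mesenchyme ranged from -0.013 to 0.41 for Egfr 1424932_at and from -0.12 to 0.10 for Egfr 1435888_at. With the mean of a gene's probe sets in place of the brightest, tip minus stalk was -0.41 for Egfr and stalk minus mesenchyme was -0.088 for Tgfa, and 0 family genes were called between tips and stalks (3 by any probe set) and 1 between tips and mesenchyme. Other scalings moved the median of all differences by at most 0.06.

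With the replicate number as a block, family calls were 4, 4, 1 and 0 and no call changed, while the counts over all probe sets were 1098, 1953 and 663 in mouse and 306, 274 and 221 in rat. Each tissue has 1 array of each number, so the block leaves every difference as it was and can move only the p-values. In mouse 0 tested probe sets with a 2-fold difference had missed the adjusted p, so the block could add no call there. Same-numbered arrays deviated together at correlations of 0.42 to 0.57 in mouse and 0.22 to 0.31 in rat. Only 2 arrays a tissue and the lack of detection calls limit what can be said of dim probe sets such as Erbb4 and Areg.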
